A study of Mus spretus with 19 samples.

Results

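Livers of wild male Algerian mice (Mus spretus) from the lower course (DR1) and the middle course (DR4) of the Domingo Rubio stream were compared on 8 expression arrays, out of 19 arrays from 5 sites in southwest Spain. The arrays were chosen by their labels: 4 carry DR1 and 4 carry DR4, and both sites are labelled polluted. The other sites were the upper course of the same stream (DR6, 3 arrays), the phosphogypsum stacks (PS, 4 arrays), which are a dump of fertilizer waste, and the Santa Olalla lagoon (SOL, 4 arrays), labelled unpolluted. Each site was represented by 1 pool of liver RNA from 9 mice, labelled anew for each array. The 4 arrays per pool are thus repeats of the labelling, and every SE and p-value below measures the spread of labelling and hybridization, not that between mice or pools. No age was given for the mice. Each pool had a slide and a scan of its own, and the effects of site and slide cannot be told apart.

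The liver label was borne out by the level of hepatocyte genes. All 21 tested hepatocyte markers were well above background on all 8 arrays, and Alb1, which encodes serum albumin, was saturated on all of them. Levels are given as the log2 of the processed signal relative to the 75th percentile of the array, and differences are DR1 minus DR4 on that log2 scale. That percentile was 186.1 to 285.2 intensity units at DR1 and 165.3 to 204.5 at DR4 (exact two-sided permutation test, p = 0.2, n = 4 each). Between 52.5% and 57.2% of gene spots were well above background at DR1, against 55.9% to 61.5% at DR4 (exact permutation test, p = 0.286). Other measures separated the slides. The median local background was 45.0 to 46.0 units at DR1 and 39.0 to 41.0 at DR4, and 74 to 148 spots were saturated at DR1 against 53 to 69 at DR4 (exact permutation test, p = 0.0286 for each, the smallest that 4 against 4 arrays can give). Across genes, which are not independent replicates, arrays of DR1 correlated with each other at 0.982 to 0.993, arrays of DR4 at 0.994 to 0.995, and arrays of DR1 with arrays of DR4 at 0.973 to 0.981.

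Of 16346 genes and transcripts tested, 841 (5.14%) differed between DR1 and DR4 at an adjusted p under 0.05 and at least 2-fold, which is the rule for a call throughout. Of these, 498 (3.05% of those tested) were higher and 343 (2.1%) were lower in DR1. The adjusted p alone was passed by 7312 genes (44.7%). At least 4-fold separated the sites for 142 genes, 87 higher and 55 lower in DR1. The median difference of all genes was 0.04. With normexp background correction, an alternative described at the end, 445 genes were called higher and 61 lower in DR1. For 182 of the called genes, 102 higher and 80 lower in DR1, only a bound can be given because none of the 4 arrays of the lower site read the gene well above background, or all 4 of the higher site were saturated. Such a bound is written "at least N-fold". It sets the mean of the higher site against a mean over the arrays of the lower site. On each of those arrays the higher of the gene's own signal and the dimmest signal to pass as well above background was taken. The bound holds for the processed signal alone, and under normexp the sign turned for some dim genes that are given with a bound.

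**Figure D1:**
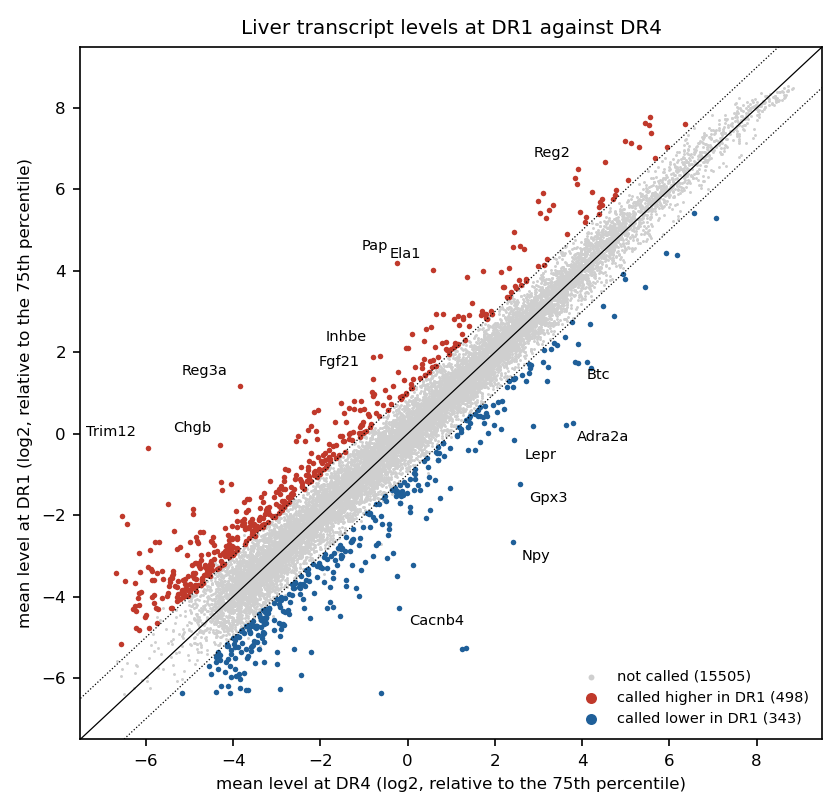
Mean level at DR1 (vertical axis) against mean level at DR4 (horizontal axis), both log2 relative to the 75th percentile of the array and over 4 arrays per site, for each of 16346 genes. Red points are the 498 genes called higher and blue points the 343 called lower in DR1; the solid line marks equal levels and the dotted lines a 2-fold difference.

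In DR1 the transcripts of pancreatic enzymes and of the Reg lectins were higher, as were 23 of 56 genes of the cell cycle and some targets of the nuclear receptor PPARα. In DR1 the neuropeptide gene Npy, the plasma glutathione peroxidase gene Gpx3, the adrenergic receptor gene Adra2a, the leptin receptor gene Lepr and the growth factor genes Fst and Btc were lower. As background, the liver takes up nutrients and toxicants from portal blood, oxidizes fatty acids when food is scarce under the control of PPARα, and clears foreign compounds with cytochromes P450 and conjugating enzymes. Hepatocytes of an adult liver rarely divide, and transcripts of digestive enzymes and islet hormones are made in the pancreas, which lies close to the liver.

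The array probes, written here 5′ to 3′ in lower case, are 60-base sequences designed on the house mouse, and 8 are shown because they read genes described below. Of these genes 6 were also read by other probes. For Adra2a, Cacnb4 and Trim12 the values below come from a brighter probe than the one shown. Positions are those of the mm8 build in the files. The first 3 are of genes higher in DR1 and the last 5 of genes lower in DR1.
Ela1: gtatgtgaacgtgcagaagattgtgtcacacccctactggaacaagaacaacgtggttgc
Acot3: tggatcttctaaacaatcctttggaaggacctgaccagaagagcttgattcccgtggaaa
Trim12: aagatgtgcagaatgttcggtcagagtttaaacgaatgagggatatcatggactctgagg
Npy: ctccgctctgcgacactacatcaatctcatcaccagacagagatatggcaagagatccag
Lepr: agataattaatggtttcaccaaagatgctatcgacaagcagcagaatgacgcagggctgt
Adra2a: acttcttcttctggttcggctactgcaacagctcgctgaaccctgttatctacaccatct
Cacnb4: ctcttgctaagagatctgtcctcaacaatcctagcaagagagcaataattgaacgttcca
Cyp2b10: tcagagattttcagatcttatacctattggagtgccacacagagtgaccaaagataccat
The Ela1 probe lies at chr15:100512617-100512676 on the minus strand, that of Acot3 at chr12:84948386-84948445 on the plus strand and that of Trim12 at chr7:104178135-104178194 on the minus strand. The Npy probe is placed at chr6:49753330-49757092 and the Lepr probe at chr4:101287267-101288768, both on the plus strand and both over a span longer than the probe. The Adra2a probe lies at chr19:54100797-54100856 on the plus strand, the Cacnb4 probe at chr2:52277627-52277686 on the minus strand and the Cyp2b10 probe at chr7:25625797-25625856 on the plus strand. Which exon each one matches was not analysed here. Whether Mus spretus carries a base difference under a probe, and whether it does so equally in both pools, was not tested.

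Of 56 tested members of the list of cell cycle and DNA replication genes, 23 rose and none fell, with a median difference of 0.80, against 3.05% called higher and a median of 0.04 among all genes tested. Cenpf, a protein of the mitotic kinetochore, had log2 levels of −1.31, −1.18, −1.33 and −1.11 on the DR1 arrays and −4.18, −4.05, −3.85 and −4.11 on the DR4 arrays. It rose by 2.81 ± 0.14 (SE; adjusted p = 1.28e-10). No array of DR1 came near those of DR4, on 2 of which it was well above background. Cdc20, an activator of the anaphase-promoting complex, had 0.27, 0.73, 0.10 and 0.04 at DR1 and −1.38, −1.67, −1.71 and −1.88 at DR4, a rise of 1.95 ± 0.17 (adjusted p = 9.9e-08). Cdca3, which triggers mitotic entry, rose by 1.97 ± 0.08, although a second probe of it read 0.77. Ccnb1, the cyclin of mitosis, rose by 2.47 ± 0.49 and was well above background on 1 of the DR4 arrays. Ccnd1, the cyclin of the step before DNA synthesis, rose by 1.03 ± 0.06.

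Of the 33 members that were not called, 6 encode subunits of the MCM helicase, which unwinds DNA for replication; they were picked out after their values were seen. These 6 lay between −0.22 for Mcm2 and 0.36 for Mcm6. Mean levels of the whole list were −0.88 at DR1, −1.65 at DR4, −1.45 at DR6, −1.41 at SOL and −1.65 at PS. By that mean the DR1 pool stood above all others. The summed linear level of the list was also higher at DR1 than at DR4, DR6 and PS. It overlapped with SOL, at 59.1 to 67.0 in DR1 and 56.1 to 60.9 in SOL. For 11 of the 23 called members, all 3 other sites were nearer to DR4 than to DR1. Of the 56 members 45 were well above background on all 8 arrays. With another background correction, normexp, only 4 members were called higher and the list median was 0.05.

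**Figure D2:**
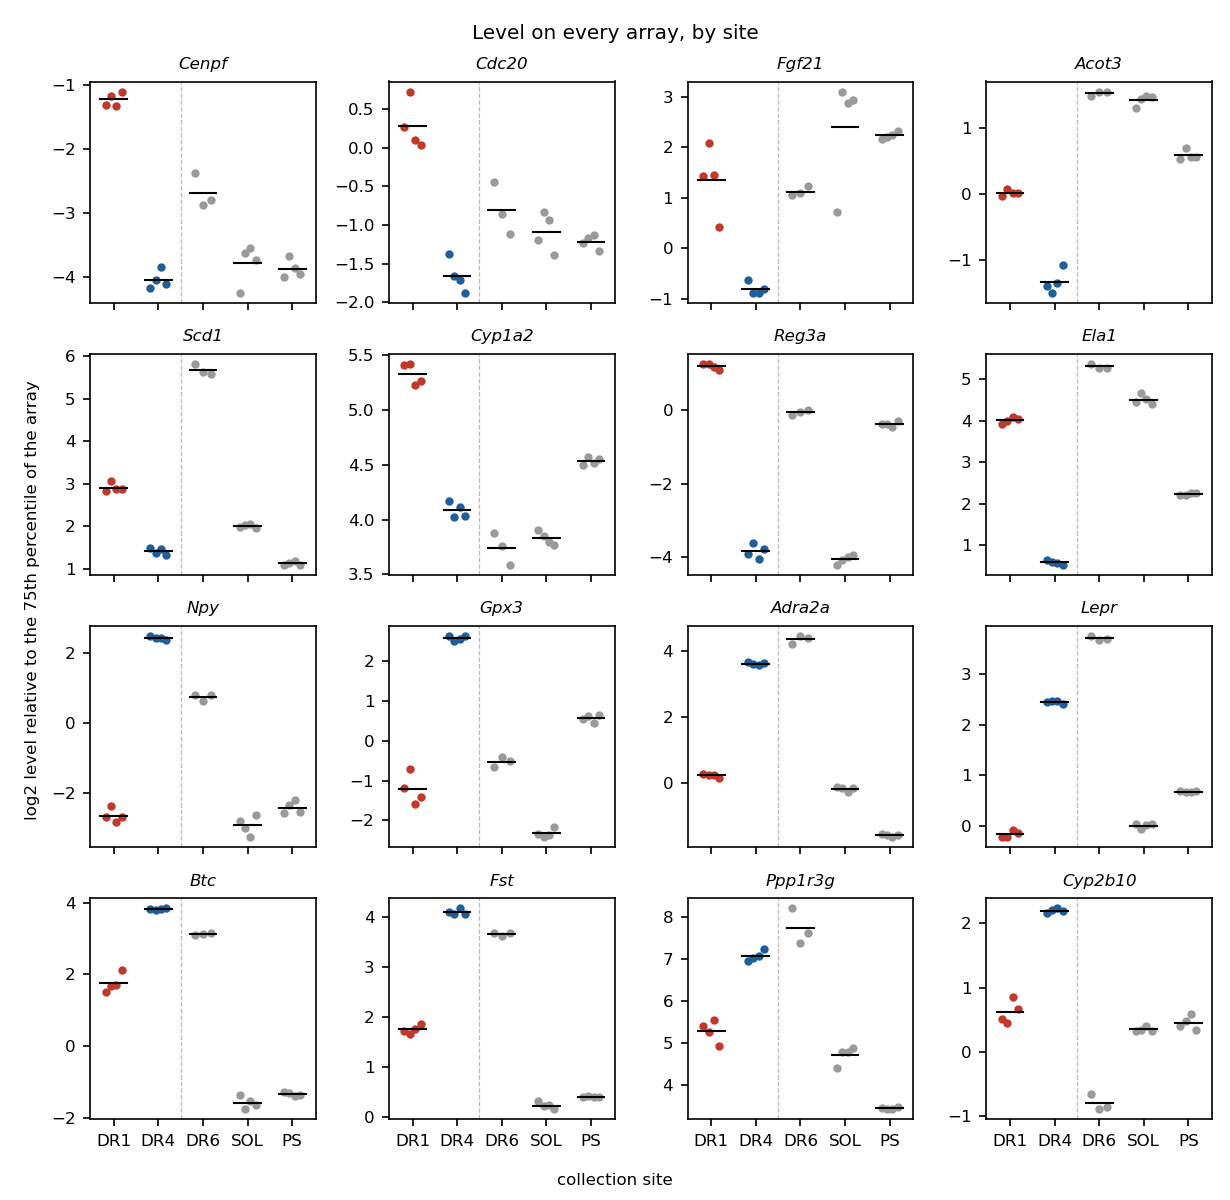
Log2 level relative to the 75th percentile on each array (points) and its mean (black line) at DR1, DR4, DR6, SOL and PS for 16 genes, with a vertical axis of its own for each gene. All 16 genes were chosen from those called between DR1 and DR4. Cenpf and Cdc20 are highest at DR1, while Npy, Gpx3, Btc and Fst are highest at DR4.

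Targets of PPARα, which drive fatty acid oxidation and the fasting response, rose in part. Of 47 tested members 8 (17.0%) rose, against 3.05% of all genes, and none fell. The median difference was 0.40, against 0.04 among all genes, and 41 of the 47 differences were positive. Fgf21, a hormone that the fasting liver secretes, had 1.42, 2.09, 1.44 and 0.43 at DR1 and −0.63, −0.88, −0.88 and −0.81 at DR4. It rose by 2.15 ± 0.41 (adjusted p = 0.000376), and its second probe read 2.07 ± 0.073. The acyl-CoA thioesterase gene Acot3, whose probe is shown above, had −0.03, 0.07, 0.02 and 0.02 at DR1 and −1.38, −1.49, −1.33 and −1.07 at DR4, a rise of 1.34 ± 0.073. The related Acot4 rose by 1.18 ± 0.06. Acot5 rose by 1.94 ± 0.38, but 1 of its DR1 arrays stood at 0.92 and the other 3 between −1.69 and −1.29. Decr1, which reduces unsaturated fatty acids for oxidation, rose by 1.32 ± 0.11. The other 3 called members, named here after their values were seen, were Aldh3a2 (1.10), Fabp3 (1.25) and Vnn1 (1.30).

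The DR4 pool was the low one of the 5 sites for this list. Its mean level was 4.45 at DR1, 3.98 at DR4, 4.95 at DR6, 5.04 at SOL and 4.83 at PS, and for 7 of the 8 called members all 3 other sites were nearer to DR1. Under normexp the count of members that rose was 14, with a median of 0.78, and under normexp with quantile scaling it was 3. Abcd2, a peroxisomal fatty acid transporter, was well above background on all DR1 arrays and on none of DR4, at least 4.41-fold higher in DR1. Inhbe, which encodes a subunit of activin secreted by hepatocytes, had 1.94, 2.0, 1.72 and 2.02 at DR1 and −0.58, −0.57, −0.75 and −0.68 at DR4, a rise of 2.56 ± 0.096 (adjusted p = 3.09e-12).

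Genes of fatty acid synthesis had a median difference of 0.06, against 0.04 among all genes. Of the 27 tested, 1 (3.70%) was called, a share near the 5.14% of all genes. This was Scd1, the stearoyl-CoA desaturase. It had 2.82, 3.05, 2.88 and 2.87 at DR1 and 1.49, 1.36, 1.47 and 1.32 at DR4 and rose by 1.5 ± 0.064, yet both stood far below the mean of 5.68 at DR6. The lipogenic regulator Srebf1 differed by −0.45 ± 0.08. Among 33 genes of lipoproteins 3 (9.09%) rose, against 3.05% of all genes, and none fell. Apob, the protein of very low density lipoprotein, rose by 1.12 ± 0.27, the uptake receptor Lrp1 by 1.08 ± 0.07 and the lipase Lipg by 1.01 ± 0.28. With the mean of all its probes Apob was no longer called, at 0.92.

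Regulators of glucose metabolism moved both ways. Of 31 tested members of the fasting and feeding list 5 (16.1%) were called, against 5.14% of all genes. Of these 2 rose (Fgf21, and Gckr, the regulator of glucokinase, by 1.29 ± 0.07) and 3 fell, and the list median was 0.13. Ppp1r3g, a subunit that directs a phosphatase to glycogen, had 5.41, 5.27, 5.54 and 4.93 at DR1 and 6.95, 7.03, 7.07 and 7.25 at DR4. It fell by 1.78 ± 0.16 (adjusted p = 1.25e-07). Snf1lk, which encodes a salt-inducible kinase, fell by 1.83 ± 0.13, and the transcription factor gene Foxo3a, named after its value was seen, by 1.16 ± 0.26. G6pc, the last enzyme of glucose release, differed by −0.81 ± 0.06 and was not called. Sdsl, an enzyme that breaks down serine and threonine, fell by 1.84 ± 0.07, with 2.82 to 2.94 at DR1 and 4.70 to 4.79 at DR4.

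The circadian clock turns liver genes up and down over the day. Of 20 clock genes 4 (20%) rose, against 3.05% of all genes, and none fell, with a median of −0.06. Dbp, an output factor of the clock, had 2.39, 2.53, 2.20 and 1.90 at DR1 and 0.95, 0.88, 0.81 and 0.89 at DR4, a rise of 1.37 ± 0.27. Hlf, a factor of the same family, rose by 1.24 ± 0.09, the clock repressor Per2 by 1.33 ± 0.15 and the deubiquitinase Usp2 by 1.33 ± 0.06. The other probes of Per2 and Usp2 read 0.35 and 0.82. The core activator Arntl (−0.91 ± 0.39) and the repressor Per1 (−0.60 ± 0.12) were not called. The labels give no hour of capture.

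Of 26 immediate early genes, which respond to a stimulus within a short time, 4 (15.4%) were called, against 5.14% of all genes. Of these 1 rose and 3 fell, and the list median was −0.28. The factor Egr1 had 3.1, 2.37, 3.05 and 2.93 at DR1 and 1.19, 1.31, 1.34 and 1.23 at DR4, and it rose by 1.60 ± 0.13 (adjusted p = 6.95e-08). The factors Klf6, Fosl2 and Nr4a2 fell by 1.07 ± 0.10, 1.07 ± 0.13 and 1.00 ± 0.11. These 3 falls lie close to the 2-fold limit, and the second, dimmer probe of Fosl2 read 0.22. Fos (0.68 ± 0.12), Nr4a1 (0.55 ± 0.06) and Myc (−0.83 ± 0.05) were not called. The other, dimmer probes of Myc read −0.68 and −1.19, and the latter passed the rule for a call. Among 28 genes linked to p53 and growth arrest 2 (7.14%) were called, beside 5.14% of all genes. Phlda3, a repressor of AKT signalling, rose by 1.73 ± 0.13. The stress protein gene Sesn2 fell by 1.03 ± 0.05, but its second probe read −0.42 and was not called. Cdkn1a stood at −0.55 ± 0.06.

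None of 21 tested metallothioneins and metal transporters was called, with a median of 0.10. Among all genes 5.14% were called, so few calls would fall in this list or the others of this paragraph. The metallothionein Mt1 had 6.87, 6.62, 7.12 and 7.16 at DR1 and 7.10, 7.33, 7.30 and 7.27 at DR4, overlapping ranges with a difference of −0.31 ± 0.11. Under normexp Mt1 read 0.15. Mt2 was saturated on 3 DR1 arrays and all DR4 arrays, so no difference is given. The iron hormone gene Hamp1 read −0.30 ± 0.14. None of 25 NRF2 targets was called, with Hmox1 at −0.09 ± 0.09 and Nqo1 at 0.72 ± 0.09. No member was called among 34 heat shock genes, 31 proteasome subunits or 72 genes of oxidative phosphorylation. Of those 72 differences 63 were positive (median 0.25, against 0.04 among all genes).

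Among 20 antioxidant enzymes Gpx3 alone was called (5%, beside 5.14% of all genes). Of called genes with a symbol and well above background on all 4 DR4 arrays, only Npy and Cacnb4 fell further. Cacnb4 was well above background on 2 of the DR1 arrays, Gpx3 and Npy on all 4. Gpx3, a secreted glutathione peroxidase, had −1.19, −0.71, −1.59 and −1.40 at DR1 and 2.63, 2.50, 2.57 and 2.64 at DR4. It fell by 3.81 ± 0.13 (adjusted p = 1.49e-12). The other sites had means of −0.53 at DR6, −2.32 at SOL and 0.57 at PS, so the DR4 pool was the high one.

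Enzymes of foreign compound metabolism differed gene by gene. Of 41 Cyp2 and Cyp3 enzymes 1 (2.44%) was called, beside 5.14% of all genes. This was Cyp2b10, the classical target of the receptor CAR. It had 0.51, 0.45, 0.85 and 0.67 at DR1 and 2.16, 2.21, 2.24 and 2.20 at DR4 and fell by 1.58 ± 0.081. Its second probe read −1.28 ± 0.099. Of 6 genes of the aryl hydrocarbon receptor Cyp1a2 rose by 1.25 ± 0.065, with 5.23 to 5.42 at DR1 and 4.02 to 4.16 at DR4, whereas Cyp1a1 overlapped between the sites at 0.15 ± 0.18. Glutathione S-transferases, which conjugate electrophiles, had 3 of 22 members (13.6%) higher, against 3.05% of all genes, and none lower, with a median of 0.37. Gstt3 rose by 1.09 ± 0.06, Gstt2 by 1.07 ± 0.09 and Mgst3 by 1.06 ± 0.06. Of 24 glucuronosyl- and sulfotransferases 4 (16.7%) were called, against 5.14% of all genes. Sult1c2 and Ugt2b34 rose by 1.10 ± 0.09 and 1.17 ± 0.27, and Sult1e1 and Sult1d1 fell by 1.44 ± 0.26 and 1.03 ± 0.07.

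Of 32 genes of bile acid synthesis and transport 3 (9.38%) were called, against 5.14% of all genes, of which 2 rose and 1 fell. Slc10a1, the main uptake carrier of bile acids, rose by 1.13 ± 0.07 and the organic anion carrier Slco2b1 by 1.40 ± 0.10, while Slc10a2, a bile acid carrier of ileum and bile ducts, fell by 1.43 ± 0.12. The synthesis enzymes Cyp7a1 (0.28 ± 0.08) and Cyp8b1 (−0.95 ± 0.11) were not called, although Cyp8b1 passed the limit with quantile scaling, at −1.04.

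Several genes of hormones, growth factors and receptors were among those that fell in DR1; they were grouped after their values were seen. Npy, whose product neuropeptide Y is made by neurons and some other cells, had −2.68, −2.38, −2.83 and −2.70 at DR1 and 2.48, 2.43, 2.41 and 2.37 at DR4. It fell by 5.07 ± 0.12 (adjusted p = 1.53e-14), the largest measured fall. Its mean was 0.73 at DR6 but −2.93 at SOL and −2.42 at PS. Adra2a, an adrenergic receptor, had 0.27, 0.25, 0.23 and 0.15 at DR1 and 3.68, 3.62, 3.57 and 3.64 at DR4 and fell by 3.41 ± 0.058 (adjusted p = 1.07e-16). Its other 2 probes read −3.12, which is the probe shown above, and −3.33. Lepr, the receptor of the fat hormone leptin, had −0.22, −0.20, −0.08 and −0.14 at DR1 and 2.44, 2.47, 2.47 and 2.41 at DR4, and fell by 2.61 ± 0.044, with −2.04 on its second probe. For both genes DR6 stood higher still, at 4.37 and 3.70.

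Fst, the activin antagonist follistatin, had 1.73, 1.67, 1.77 and 1.87 at DR1 and 4.11, 4.07, 4.19 and 4.06 at DR4 and fell by 2.35 ± 0.051 (adjusted p = 4.2e-15). Btc, a ligand of the EGF receptor, had 1.51, 1.68, 1.72 and 2.13 at DR1 and 3.83, 3.80, 3.83 and 3.85 at DR4, a fall of 2.07 ± 0.10. It was the only one called (7.14%, beside 5.14% of all genes) of 14 genes of the EGF receptor and its ligands. That list had a median of −0.19. Fst and Btc were lower at SOL (0.23 and −1.58) and PS (0.41 and −1.34) than at either of these stream sites.

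Cacnb4, a subunit of voltage-gated calcium channels, fell by 4.07 ± 0.31, on a probe that was well above background on 2 of the DR1 arrays. Its 3 other probes, of which 1 is shown above, were well above background on all 4 DR4 arrays and on no DR1 array. Kcnab1, a potassium channel subunit, fell by 2.70 ± 0.12, and the adenylyl cyclase Adcy8 was at least 2.55-fold lower. Gabrg1, a subunit of the GABA receptor, was at least 3.69-fold higher in DR1 with the processed signal, but under normexp it read −0.044.

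Other genes with the largest measured falls were Ddx25, an RNA helicase of the testis (3.52 ± 0.23), and Trim55, a protein of muscle (2.59 ± 0.26). Both were low at DR1 against all 4 other sites, whose means were 2.92 to 3.78 for Ddx25 and 3.52 to 4.21 for Trim55, against 0.26 and 1.62 at DR1. Defb1, an antimicrobial peptide, fell by 2.58 ± 0.16, Cend1 by 2.30 ± 0.08, Pkib, an inhibitor of protein kinase A, by 2.27 ± 0.11, the helicase Blm by 2.17 ± 0.11 and Reps1 by 2.04 ± 0.07. Krt2, Rrs1 and Fmn2 fell by 2.59 ± 0.36, 2.55 ± 0.18 and 2.32 ± 0.11. The DR1 arrays of Krt2 were spread, at −1.36, −3.57, −3.67 and −3.12, against −0.42 to −0.23 at DR4. Usp26, Ifnk and Aym1 were at least 3.76-fold, 2.69-fold and 1.42-fold lower. The second probe of Fmn2 read −0.77 and was not called.

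Trim12, a member of the TRIM family of proteins, rose in DR1. Its brighter probe read −0.43, −0.26, −0.39 and −0.36 at DR1 and was not well above background on any DR4 array, a difference of at least 18.2-fold. The probe shown above was likewise well above background on all 4 DR1 arrays and on no DR4 array. Means at the other sites were −0.97 at DR6, −2.61 at SOL and −0.15 at PS, so Trim12 was lowest at DR4. Retnla, a secreted protein of alternatively activated macrophages, rose by 3.11 ± 0.23, with 2 DR4 arrays well above background; its second probe was well above background on all 4 DR1 arrays and on no DR4 array. The chitinase-like genes Chi3l3 and Chi3l4, also products of such macrophages, fell by 1.78 ± 0.13 and 1.52 ± 0.11.

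Of 27 Kupffer cell and macrophage markers 2 (7.41%) were called, beside 5.14% of all genes. The scavenger receptor Marco rose by 1.15 ± 0.079 and Emr1 by 1.03 ± 0.06, and the list median was 0.31. None of 25 endothelial, 27 stellate cell or 14 MHC class II genes was called, with medians of 0.11, 0.35 and 0.09. Of the stellate cell differences 20 were positive and 7 negative. Mean levels of that list were 0.76 to 0.81 on the DR1 arrays and 0.48 to 0.51 on the DR4 arrays. In bulk RNA fewer cells of a type and less RNA per cell cannot be told apart. Of 15 neutrophil markers 4 (26.7%) were called, against 5.14% of all genes. Of these 3 rose, Fpr1 by 1.01 ± 0.09, Lcn2 by 1.25 ± 0.39 and Padi4, measured on 3 DR1 arrays, by at least 2.1-fold, and Chi3l3 fell. The arrays of Lcn2 overlapped between the sites, and it was well above background on 1 DR4 array. The summed level of the list was 13 to 16.3 times the 75th percentile at DR1 and 12.7 to 13.8 at DR4. Of 16 erythroid markers 3 (18.8%) were called. Of these, Ank1 and Eraf rose by 1.40 ± 0.16 and 1.11 ± 0.18, and Spna1 was called without being above background at either site. The erythroid sum was 384 to 422 at DR1 and 310 to 313 at DR4. The second probes of Emr1 and Ank1 read 0.43 and 0.18. Of 22 cholangiocyte markers 3 (13.6%) were called: Tff2 rose and Slc10a2 fell, as described elsewhere here, and the water channel gene Aqp4 fell by 2.06 ± 0.54. The arrays of Aqp4 overlapped between the sites, and 1 of the DR1 arrays was well above background. The second probe of Aqp4 read −1.08 and was not called.

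Of 45 interferon response genes 3 (6.67%) were called, a share near the 5.14% of all genes. Mx2 rose by 1.19 ± 0.09 and Rsad2 and Oasl1 fell by 1.19 ± 0.13 and 1.01 ± 0.10, with a median of 0.17. Of 37 acute phase genes 2 (5.41%) rose and none fell, beside 5.14% of all genes called. A2m, the protease inhibitor α2-macroglobulin, had 1.14, 1.04, 1.11 and 0.82 at DR1 and −0.84, −0.67, −0.79 and −0.96 at DR4, a rise of 1.84 ± 0.08 (adjusted p = 2.27e-11), and Lcn2 is the other. Gluld1 and the mitotic gene Ckap2 were at least 7.04-fold and 3.66-fold higher in DR1, but under normexp Ckap2 read −0.047.

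Transcripts of the exocrine pancreas formed the set with the largest share of calls among those of more than 10 tested members. Of 26 tested markers 24 (92.3%) rose and none fell, with a median of 2.18. All 4 DR1 arrays had a summed linear level of 1839 to 2091 times the 75th percentile, against 541 to 596 at DR4, and 24 of the 26 markers were well above background on all 8 arrays. Ela1, an elastase, had 3.93, 3.99, 4.09 and 4.04 at DR1 and 0.65, 0.59, 0.58 and 0.53 at DR4, a rise of 3.42 ± 0.058 on both of its probes. The carboxypeptidase Cpb1 rose by 2.73 ± 0.11, the phospholipase Pla2g1b by 2.67 ± 0.08 and Cuzd1, a zymogen granule protein, by 2.66 ± 0.07. The summed level was higher still at DR6 (3949 to 4256) and SOL (3195 to 3705) and between DR4 and DR1 at PS (1024 to 1067). For all 24 called members DR6 and SOL were nearer to DR1 than to DR4.

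The Reg genes encode secreted lectins of pancreas and gut that rise in inflamed or regenerating tissue. All 6 tested members rose, against 3.05% of all genes, with a median of 3.64. Reg3a had 1.24, 1.25, 1.15 and 1.08 at DR1 and −3.92, −3.61, −4.04 and −3.79 at DR4, a rise of 5.02 ± 0.083 (adjusted p = 1.07e-16). Pap, the pancreatitis-associated protein, had 4.23, 4.25, 4.25 and 4.09 at DR1 and −0.28, −0.26, −0.17 and −0.29 at DR4, a rise of 4.45 ± 0.09. Reg3d, Reg1 and Reg2 rose by 3.08 ± 0.30, 2.81 ± 0.13 and 2.58 ± 0.06, and Reg3g was at least 4.97-fold higher. Of the 6 members 4 were well above background on all 8 arrays. Under normexp Reg3d and Reg3g were no longer called. The order of the sites was not that of the pancreatic enzymes: the mean level of the Reg list was 2.29 at DR1, −1.40 at DR4, 1.71 at DR6, −1.14 at SOL and 0.32 at PS, with SOL low. The part of pancreatic tissue in the Reg values was not tested.

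**Figure D3:**
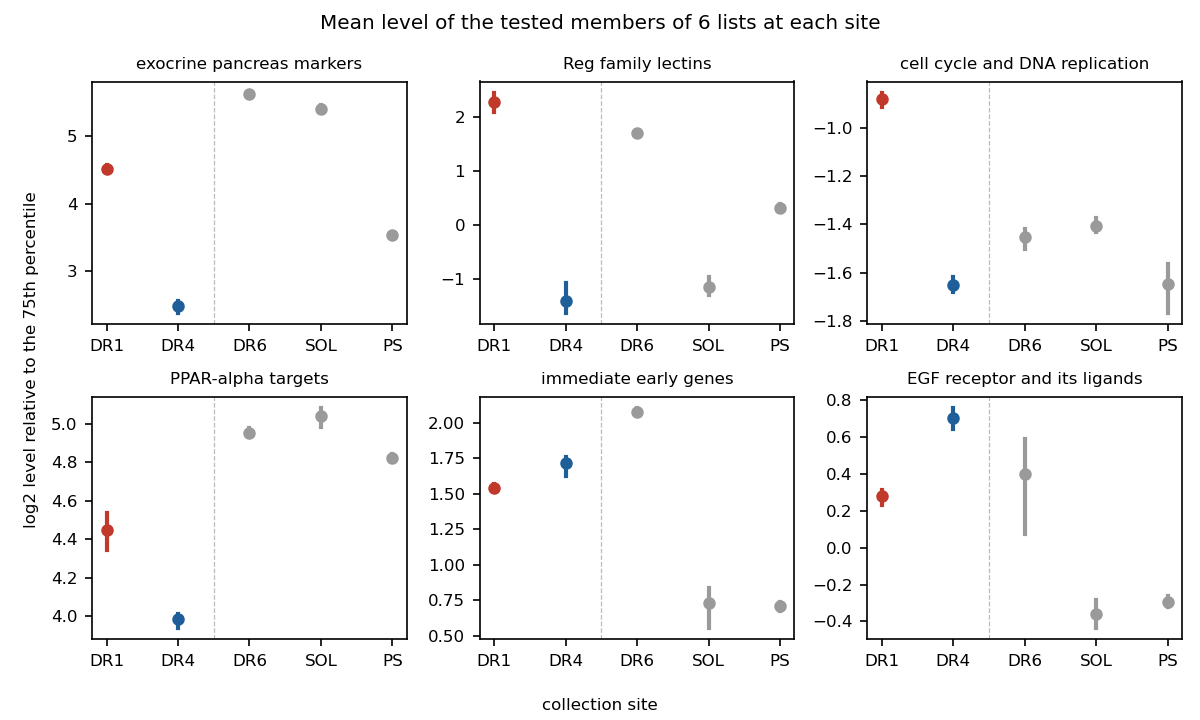
Mean log2 level relative to the 75th percentile of the tested members of 6 gene lists at DR1, DR4, DR6, SOL and PS. Points are means over the arrays of a site and bars run from the lowest to the highest array; DR4 is the lowest site for exocrine pancreas markers, Reg lectins and PPARα targets, and DR1 the highest for the cell cycle list.

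Markers of other organs followed in part. Of 16 islet and neuroendocrine markers 6 (37.5%) rose, against 3.05% of all genes, and none fell. The list had a median of 0.80 and a summed level of 6.83 to 8.78 at DR1 against 3.36 to 4.9 at DR4. Chgb, a protein of hormone granules, had −0.23, −0.23, −0.27 and −0.34 at DR1 and −4.37, −4.31, −4.33 and −4.19 at DR4, a rise of 4.03 ± 0.10, with its highest mean, 1.43, at PS. It was well above background on 1 DR4 array. The insulin genes Ins2 and Ins1 rose by 2.36 ± 0.11 and 2.04 ± 0.22, and the pancreatic polypeptide gene Ppy was at least 1.24-fold higher. Under normexp Ppy read −0.30. Of 11 kidney and adrenal markers 4 (36.4%) rose, against 3.05% of all genes. Hsd3b1 and Star, of steroid synthesis, rose by 2.45 ± 0.087 and 2.19 ± 0.082, Cyp11a1 by at least 2.32-fold and the kidney gene Umod by at least 1.42-fold. The second probe of Star read 0.94 and was not called. Under normexp Cyp11a1 and Umod read −0.22 and −0.24. The summed level of that list overlapped, at 18.1 to 19.4 in DR1 and 13.5 to 24.3 in DR4.

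Muscle genes also stood higher. All 31 adipose and muscle markers had a positive difference, with a median of 0.65, against 0.04 among all genes. Of them 4 (12.9%) were called higher, against 3.05% of all genes. These were the muscle genes Myh4, Myl1, Mb and Tnnt3, which rose by 1.46 ± 0.09, 1.24 ± 0.07, 1.09 ± 0.05 and 1.01 ± 0.07. The list sum was 204 to 217 at DR1 and 130 to 141 at DR4. The second probe of Myl1 read 0.11. Of 30 gut, squamous and lung markers 9 (30%) were called, against 5.14% of all genes. Of these 6 rose and 3 fell, and the list had a median of −0.05 and sums of 118 to 152 at DR1 and 99.3 to 117 at DR4. The trefoil peptide Tff2 rose by 2.68 ± 0.08, the lung surfactant gene Sftpc was at least 7.0-fold higher and the intestinal defensin Defa1 at least 1.14-fold higher. The intestinal protease Mep1b was at least 1.21-fold lower. Under normexp Defa1 read −0.32. Krt20, a keratin of gut epithelium, rose by 2.96 ± 0.23. It was well above background on 1 DR4 array and was no longer called under normexp. The part of tissue other than liver in these pools was not tested.

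**Figure D4:**
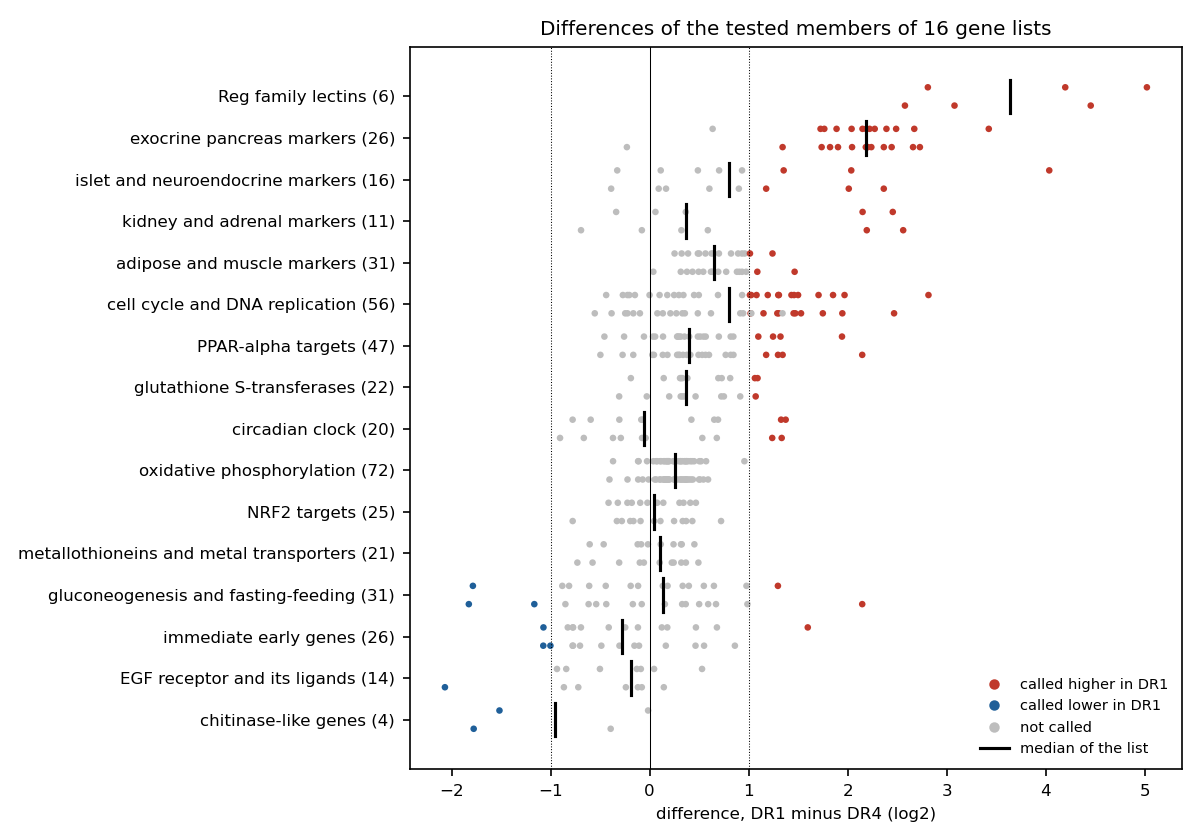
Difference DR1 minus DR4 (log2, horizontal axis) of every tested member of 16 gene lists, with the number tested in brackets. Red points were called higher and blue points lower in DR1, grey points were not called, black bars are list medians and dotted lines mark 2-fold; Reg lectins and exocrine pancreas markers lie furthest to the right, with medians of 3.64 and 2.18.

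Several lists held a single called gene in either direction. These were C8g of 46 complement and coagulation genes (1.03 ± 0.08), Rpl14 of 60 ribosomal protein genes (1.74 ± 0.11) and Cr2, a complement receptor, of 14 B cell markers (1.36 ± 0.12). Another was Phgdh, an enzyme of serine synthesis, of 36 genes of the amino acid and endoplasmic reticulum stress responses (1.19 ± 0.08). The other probes of Phgdh read 0.85 and 0.73 and were not called. The complement and coagulation list had a median of 0.31, with 38 differences positive and 8 negative. The B cell list also had a median of 0.31, with 11 positive and 3 negative. Its sums were 38.8 to 41.3 at DR1 and 25.9 to 27.1 at DR4. Of 46 genes of the urea cycle and amino acid breakdown 2 (4.35%) were called. Haao, which breaks down tryptophan products, rose by 1.03 ± 0.10 and Sdsl fell. In all, 143 of the 1308 tested members of 51 lists were called, beside 841 of all 16346 genes (5.14%).

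The levels at the 3 other sites were set against the 2 compared. Of the 498 genes called higher in DR1, all 3 other sites were nearer to DR1 for 30.7% and nearer to DR4 for 13.7%, against 28.6% and 23.3% of all genes tested. For the genes called lower in DR1 these shares were 30.0% and 19.2%. DR6, upstream of both, was nearer to DR1 for 58.2% of the genes called higher in DR1 and for 35.6% of the 343 called lower in DR1, against 45.7% of all genes tested. A split in which SOL and PS were nearer to DR1 and DR6 nearer to DR4 was found for 30.9% of the genes called lower, against 15.1% of all genes tested. Npy, Adra2a, Lepr, Fst, Btc and Ppp1r3g follow that split. These shares describe 5 pools and have no test.

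Choice of probe and of background correction mattered for single genes. Of 125 called genes among those singled out by the naming rule, 42 had more than 1 kept probe. In 40 of these every probe had the same sign, in 28 every other probe was called as well, and in 13 no other probe was called. Normexp, which subtracts the local background by a model, turned the sign of 15 of the 125, whose mean levels at DR1 lay between −4.66 for Spna1 and −2.66 for Gabrg1. Under the same correction Pap and Ela1 read 4.04 and 3.39, close to their values above, whereas other large differences kept their sign and shrank: Npy read −3.09, Gpx3 −2.57, Adra2a −2.88, Reg3a 2.28, Chgb 1.10 and Cacnb4 −1.84.

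**Figure D5:**
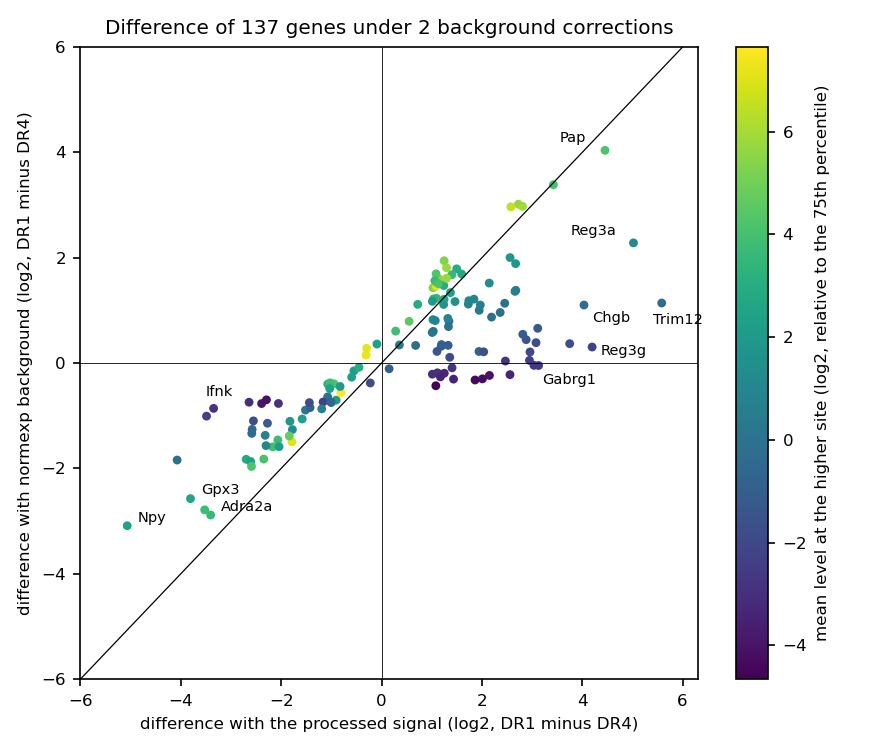
Difference DR1 minus DR4 (log2) of 137 genes with the processed signal (horizontal axis) and after normexp background correction (vertical axis), coloured by the mean level at the higher of the 2 sites. Pap and Ela1 lie near the line of equal values, Npy, Gpx3 and Adra2a keep a smaller negative difference, and dim genes higher in DR1, such as Gabrg1 (−0.044), lie near 0.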

How the data were processed

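Liver RNA pools were measured on 1-colour Agilent arrays of 45018 spots, 43379 of them for 41174 gene probes. Per the file headers, the authors extracted the images with Agilent Feature Extraction 9.5.3.1, and the deposited processed signal is an intensity on a linear scale after background subtraction. The DR1 slide was read with an older design file (mm7) than the other slides (mm8); names were taken from the DR4 files, and 5.84% of gene spots carry another name in the DR1 files. The deposited table of the series holds the same signals rounded, within 0.497%, with array medians of 9.72 to 24.8.

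The signal was divided by the 75th percentile of the array and put on a log2 scale. Control spots were left out, outlier spots set to missing and spots of a probe averaged. Probes that passed the scanner's test of signal over background on 3 or more arrays of any 1 site were kept (23458), with the brightest probe standing for a gene. One limma 3.58.1 model (R 4.3.3) with a mean for each of 5 sites was fitted over all 19 arrays, with 14 residual degrees of freedom, which shares the spread of all sites. Adjusted p-values are Benjamini-Hochberg over 16346 genes. Genes named were the 15 largest rises and falls, fitted and measured, up to 4 called members of each list, 39 genes of interest (38 tested, 7 called, the other 31 between −0.95 and 0.76) and those said to be named later. The members and lists were chosen with earlier results of these data known. The fit was tested on simulated data. Exact permutation tests of array measures used SciPy 1.17.1. The number of arrays, and of pools, limits the precision. The results of some genes are not reported here.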

Additional observations from a re-analysis of the deposited data

Results flagged for a closer look

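In groups of 4 arrays, 1 array stood apart from the other 3 in 22 of 278 groups tested, by a gap above Dixon's critical value. Chance gives about 1 in 20. The arrays involved were DR1 replicate 4 (6 times), DR4 replicate 2 and DR1 replicate 2 (4 times each), DR4 replicates 1 and 4 (3 times each) and DR1 replicates 1 and 3 (1 time each). DR4 replicate 2 had 61.5% of gene spots well above background, the most of its site.

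Among genes called higher in DR1, the array apart was DR1 replicate 1 for Acot5 (0.92), DR1 replicate 2 for Lrp1 (3.58), DR1 replicate 3 for Reg2 (6.40) and DR1 replicate 4 for Padi4 (−2.88), Pap (4.09), Reg3d (−2.74), Star (−0.41), Myh4 (1.45) and C8g (5.18). On the DR4 side it was replicate 2 for Trim12 (−5.29), Reg3g (−5.39) and Cyp11a1 (−4.91), replicate 4 for Gluld1 (−4.83) and replicate 1 for Tnnt3 (1.03). Among genes lower in DR1 it was DR1 replicate 2 for Klf6 (2.42), Ddx25 (−0.62) and Mep1b (−5.93), and DR4 replicate 1 for Snf1lk (2.05) and Sesn2 (3.84). DR4 replicate 4 stood apart for Foxo3a (−2.07) and for G6pc (7.73), which was not called.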

How the results depend on the processing

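Of 125 called genes named by the rule, 52 kept their call under all 20 settings tried, 47 lost it only under the 2 normexp settings and 26 lost it elsewhere. Median scaling (845 called), outlier spots kept (841), the brightest unsaturated probe (841), the deposited table (842), the 8 arrays alone (818) and a stricter filter (725 of 15399 genes) cost none of them the call. With no filter 1057 of 27845 genes were called and 1 named call was lost, with quantile scaling 847 and 7, and with the mean of all probes 812 and 9. The adjusted p alone called 7312 genes (4394 higher and 2918 lower), and an adjusted p under 0.01 with 3-fold called 267 (161 and 106). Normexp background correction called 506, with 445 higher (87.9%, against 59.2% of calls with the processed signal) and 61 lower, and left 66 of the named calls; 14 PPARα targets, 4 cell cycle, 1 islet and 2 gut and lung markers were then higher. Normexp with quantile scaling called 195 (110 higher and 85 lower), 69 list genes and 58 named ones, with 3 PPARα targets, 3 cell cycle, 2 islet and 1 gut and lung markers higher. The cause was not tested.

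Signs turned under normexp for Ank1 (−0.090), Ckap2 (−0.047), Cyp11a1 (−0.22), Cyp1a1 (−0.11), Defa1 (−0.32), Eraf (−0.19), Gabrg1 (−0.044), Lcn2 (−0.19), Lipg (−0.21), Padi4 (−0.31), Ppy (−0.30), Spna1 (−0.43), Ugt2b34 (−0.26) and Umod (−0.24), and to positive for Hamp1 (0.28), Hmox1 (0.36) and Mt1 (0.15). Leaving out 1 array gave 814 to 912 called genes. Of the named calls 18 were then lost at least once: Apob, C8g, Ccnd1, Col5a3, Eraf, Fosl2, Fpr1, Haao, Lcn2, Lipg, Nr4a2, Ntrk2, Oasl1, Sesn2, Spna1, Sult1d1, Tnnt3 and Ugt2b34. With the replicate number as a block 845 genes were called (500 higher and 345 lower) and no named call was lost. Same-numbered arrays of the 2 sites correlated at −0.09, −0.07, 0.26 and 0.10 in their deviations, so the number is no pairing. Dim probes limit the small differences, and 1 pool a site limits them all.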
